A study of Mus musculus with 18 samples.

Results

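The genes described here are 49 genes of mitosis and the kinetochore, the protein assembly that ties each chromosome to the spindle. They were given as a list of gene symbols with no threshold on a measured value, although results of these data were known when the list was made. All 49 were found among the 22598 genes of each count table. All 49 also passed the filter on low counts, and were tested in a table of 11563 genes. The list was grouped into 7 roles: mitotic kinases and cyclins (7 genes), the chromosomal passenger complex (4), centromere and outer kinetochore (12), spindle checkpoint and anaphase-promoting complex (7), mitotic kinesins (9), spindle assembly and cytokinesis (5), and chromosome structure and cohesion (5).

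Expression was measured by RNA sequencing in macrophages grown from bone marrow of wild-type mice (BMDMs). There were 18 libraries in 6 groups of 3. The control group carried no stated addition, the IFNg group received interferon-gamma, the cytokine of T and NK cells that activates macrophages, and the other 4 groups received IFNg together with 1 further condition. These were TNF (tumour necrosis factor), IL1b (the inflammatory cytokine interleukin-1 beta), LPS (lipopolysaccharide from the bacterial outer membrane) and hypoxia. All groups were labelled 18 h, and doses, oxygen level and the animals' age and sex are not stated there. Every addition came on top of IFNg, so what it does by itself was not measured. The sample titles begin with M1, M2 or M3, each once per group, and do not say what this number marks. Whether replicate libraries stem from different animals or dishes is also not stated, so the p-values reflect only the spread among these samples, which could be technical. Below, the TNF, IL1b, LPS and hypoxia groups are the groups that also received IFNg.

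As background, a cell enters mitosis when Cdk1 is switched on by cyclins A and B, and it leaves mitosis when the anaphase-promoting complex (APC/C) marks cyclin B and securin for destruction. Most of the genes involved are transcribed only in the G2 and M phases of the cell cycle, under the DREAM and MuvB complexes with B-Myb and the forkhead factor FOXM1, so that their RNA is commonly read as a mark of dividing cells. Cultured bone marrow macrophages divide in response to the growth factor CSF1, and activated macrophages are known to stop dividing.

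Total counts ran from 12270565 to 20952799 per library. Macrophage markers such as Csf1r, Adgre1 and Lyz2 were present in every library, with a summed level of the 12 markers between 18080 and 29550 CPM. CPM, the unit of all levels below, is a gene's count scaled by TMM to a common library size, on which 3 counts equal 0.151 to 0.255 CPM. Replicates differed by more than counting noise, with a chi-square of 12.2 to 52.8 per degree of freedom. In bulk samples, fewer cells of a type and less RNA per cell cannot be told apart, and this holds for every level given here.

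Added up, the 49 genes were most abundant in the control, lower with IFNg and with IL1b, and far lower in the other 3 groups. The control libraries summed to 5527, 5685 and 4700.0 CPM and the IFNg libraries to 2919, 2834 and 2316 CPM. With IL1b the sums were 2554, 2356 and 1957 CPM. They were 653, 683 and 678 CPM with LPS, 635, 630.3 and 464 CPM with hypoxia, and 372, 394 and 297 CPM with TNF. The control libraries all lay above the IFNg libraries, the IFNg and IL1b libraries overlapped, and the LPS, hypoxia and TNF libraries lay below all of these without overlapping one another.

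**Figure D1:**
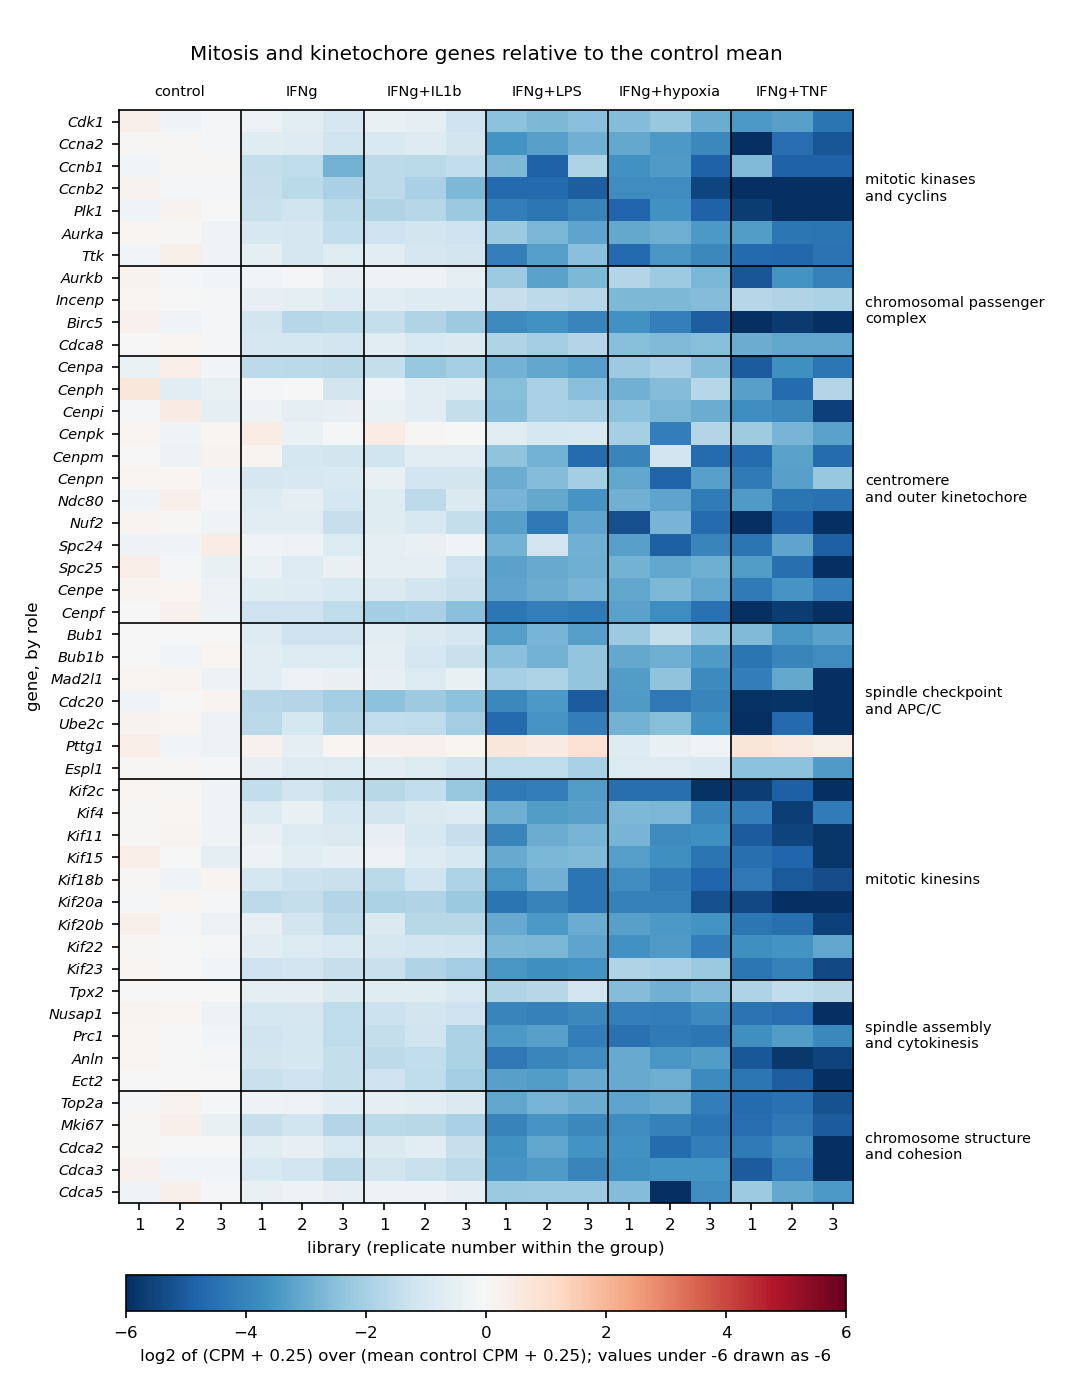
Level of each of the 49 genes (rows, by role) in each of the 18 libraries (columns, 3 per group), as the log2 ratio of CPM + 0.25 to the mean control CPM + 0.25, where values under -6 are drawn as -6. Blue is below the control mean and red above it. The LPS, hypoxia and TNF columns are blue in nearly every row, and the row of Pttg1 is the exception, being red in the LPS and TNF columns.

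The group order was much the same from gene to gene. The control had the highest mean in 47 of the 49 genes, and the exceptions were Cenpk, highest with IL1b, and Pttg1, highest with LPS. TNF had the lowest mean in 40, hypoxia in 8 (Ccnb1, Incenp, Cenpn, Pttg1, Kif22, Tpx2, Prc1 and Cdca5) and LPS in 1 (Bub1). The full order control, IFNg, IL1b, LPS, hypoxia, TNF from high to low was found in 23 genes, and 13 more had it with LPS and hypoxia exchanged. These are orders of means, and neighbours in them did not always differ, as the tests below show for IFNg and IL1b (0 genes) and for LPS and hypoxia (15 genes).

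Each comparison was tested with edgeR's quasi-likelihood test, with Benjamini-Hochberg adjustment over all 11563 tested genes and 0.05 as the threshold, and log2 fold changes are given with their standard error (SE). With IFNg alone, 28 of the 49 genes were lower than in the control and 0 higher, where 23.6% of all tested genes changed, 1161 lower and 1566 higher. The median log2 fold change of the 49 was -0.88, against -0.015 over all tested genes. The genes were lower in all 3 IFNg libraries than in any control library for 40 of 49, against 18.9% of all tested genes.

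The 4 additions were each compared with the same 3 IFNg libraries, so these comparisons share them and are given side by side. With TNF 47 genes fell and 1 rose, where 44.7% of all tested genes changed (22.6% lower and 22.1% higher), and the median log2 fold change was -3.75, which is a level 13.4 times lower. With LPS 44 fell and 1 rose, where 20.3% changed (10.1% lower and 10.2% higher), with a median of -2.33 (5.02 times lower). With hypoxia 44 fell and 0 rose, where 25.2% changed (11.8% lower and 13.5% higher), with a median of -2.49 (5.63 times lower). With IL1b, edgeR called 0 of the 49 at a background of 0.303% of all tested genes, DESeq2 also called 0, and 4 genes had an unadjusted p under 0.05. Their median was -0.21 and 41 of the 49 fold changes were negative, and a p that misses the threshold does not show that the levels were equal. The medians over all tested genes were between -0.049 and -0.001 in these 4 comparisons.

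**Figure D2:**
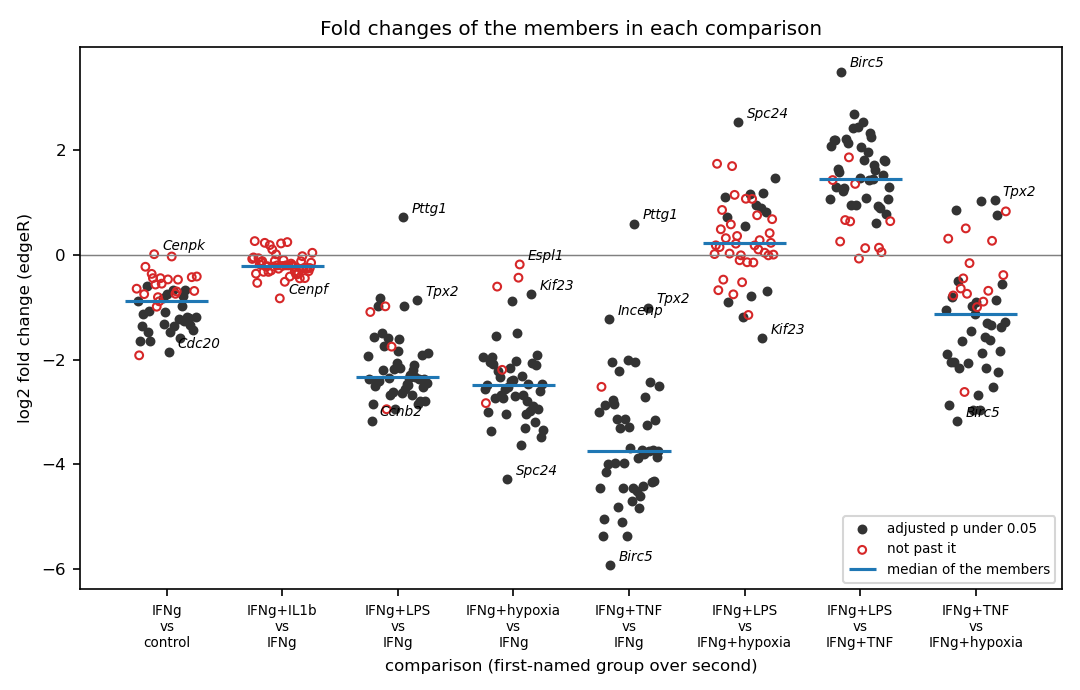
Log2 fold change (edgeR, first-named group over the second) of the 49 genes in each of 8 comparisons, with filled points past the adjusted p threshold of 0.05, open points not past it, and a bar at the median of the genes. Nearly all points lie below 0 for LPS, hypoxia and TNF against IFNg, and Pttg1 stands above 0 with LPS and TNF. Those of IL1b against IFNg lie close to 0 with none past the threshold, 41 of the 49 being negative.

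The 3 lowering conditions were also compared with one another directly. LPS left 38 of the 49 genes higher than TNF did and 0 lower, where 25.3% of all tested genes changed (12.2% higher and 13.1% lower), with a median log2 difference of 1.44. TNF left 31 lower and 4 higher than hypoxia did, where 39.0% changed (20.1% lower and 18.9% higher), with a median of -1.12. LPS and hypoxia differed in 15 genes, 10 higher and 5 lower with LPS, where 14.4% of all tested genes were higher and 15.5% lower, so the share of the 49 that differed was near the background of 30.0% for changes in either direction. With library totals taken from the deposited RPKM values, that split was 15 higher and 4 lower. Without the third hypoxia library it was 6 higher and 7 lower, so the direction of the balance between LPS and hypoxia rested on 1 library.

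Among the mitotic kinases and cyclins, all 7 genes were lower with TNF, LPS and hypoxia than with IFNg by their means, and 6 of 7 passed the test in each of these comparisons. Ccnb2 (chr9:70407692-70421547 on mm10, minus strand), which encodes cyclin B2 and was the most abundant gene of the role, stood at 215, 173 and 176 CPM in the control and at 71.9, 60.2 and 48.4 CPM with IFNg. It fell to 7.13, 7.14 and 5.78 CPM with LPS, to 13.98, 14.1 and 3.94 CPM with hypoxia and to 1.72, 1.25 and 1.33 CPM with TNF. The groups did not overlap, except that the third hypoxia library lay below the LPS libraries and the IL1b libraries (62.9, 48.9 and 28.8 CPM) overlapped those of IFNg. The log2 fold change was -1.64 (SE 0.32, adjusted p = 0.000641) for IFNg against control, and against IFNg it was -3.17 (SE 0.35, adjusted p = 2.19e-06) with LPS, the largest fall of the 49 genes in that comparison. With TNF it was -5.37 (SE 0.42, adjusted p = 4.62e-09).

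Cdk1 (chr10:69335146-69352938), the kinase that drives entry into mitosis, had a smaller fold change than most of its cyclins. Its levels were 88.6, 71.9 and 56.1 CPM with IFNg, 20.1, 16.97 and 19.4 CPM with LPS, 18.7, 23.2 and 13.98 CPM with hypoxia, and 10.1, 11.4 and 5.26 CPM with TNF. The TNF libraries lay below all LPS and hypoxia libraries, which overlapped each other. Its log2 fold change with TNF was -3.01 (SE 0.27, adjusted p = 1.83e-09), while that of Ccna2, the cyclin A2 gene, was -4.45 and that of Plk1, the polo-like kinase of mitotic entry and exit, was -5.04. No test compared these genes with one another.

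Ccnb1, the cyclin B1 gene, was the one gene of the role that passed no test. It was counted at 6.26, 7.34 and 7.33 CPM in the control and at 2.45, 2.30 and 0.752 CPM with IFNg, and 0 counts were found in 2 TNF libraries, 1 LPS library and 1 hypoxia library. On a per-length scale its control level was 3.36 ± 0.24 RPKM (SD, n = 3), against 98.2 ± 14.7 for Ccnb2. Of the 50-base stretches of its coding sequence, 76.9% also occur in other annotated loci such as Ccnb1-ps, against 13.2% for the next gene, Cdc20, and 0 for 31 of the 49. How the authors counted reads with several matching places is not stated in the labels, so the level of Ccnb1 is uncertain.

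The promoters of these genes are shown because they carry the sequence elements by which this gene class is commonly recognised, the cell cycle homology region (CHR, searched as TTTGAA or TTTAAA) and the CCAAT box, both searched on both strands. The 250 bases before the RefSeq start site (build GRCm38.p6) are given for the 3 most abundant kinase and cyclin genes that hold both among those with a window in the RefSeq table, 5′ to 3′ on the gene's strand, with CHR and CCAAT matches in capitals (ATTGG is CCAAT on the other strand). They lie at chr9:70421555-70421804 (minus strand), chr10:69352913-69353162 (minus strand) and chr7:122159185-122159434 (plus strand).
Ccnb2: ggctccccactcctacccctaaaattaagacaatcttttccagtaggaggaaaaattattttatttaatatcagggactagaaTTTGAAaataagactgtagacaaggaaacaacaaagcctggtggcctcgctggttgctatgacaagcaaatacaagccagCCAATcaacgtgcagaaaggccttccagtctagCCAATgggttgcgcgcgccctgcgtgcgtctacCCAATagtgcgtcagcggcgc
Cdk1: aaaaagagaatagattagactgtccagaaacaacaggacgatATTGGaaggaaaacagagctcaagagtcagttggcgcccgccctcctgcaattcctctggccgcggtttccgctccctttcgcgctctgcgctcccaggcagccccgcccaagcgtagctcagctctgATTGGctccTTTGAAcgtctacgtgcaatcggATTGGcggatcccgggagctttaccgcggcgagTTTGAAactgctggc
Plk1: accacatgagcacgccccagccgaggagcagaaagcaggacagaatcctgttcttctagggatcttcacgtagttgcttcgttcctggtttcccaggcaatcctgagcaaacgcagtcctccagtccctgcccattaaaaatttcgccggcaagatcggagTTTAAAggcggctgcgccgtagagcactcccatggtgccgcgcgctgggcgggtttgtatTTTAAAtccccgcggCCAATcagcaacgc
The Ccnb2 and Cdk1 windows hold 3 CCAAT matches each and that of Plk1 holds 1.

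RefSeq promoter windows, from 250 bases before to 50 after the start, were found for 42 of the 49 genes, which have 46 start sites, and not matched for Ccna2, Aurkb, Incenp, Spc24, Kif20a, Tpx2 and Cdca2. A CHR match was present in 76.1% of these 46 windows, against 27.6% of all 32851 mouse windows and 19.3% of those of tested genes. CCAAT was present in 76.1%, against 37.4% of all windows and 37.8% of those of tested genes. The E2F-like letters TTTNNCGC were in 13.0%, or 6 of the 46 windows, against 5.17% of all windows and 8.21% of those of tested genes. A CHR match within 50 bases of the start, a window chosen after the positions had been seen, was present in 69.6% of the windows of these genes and in 8.28% of all windows. The windows of Pttg1, Nuf2, Nusap1 and Mad2l1 held none of the CHR and CCAAT letters. A match in letters describes the window and does not show a bound site, and a missing match says only that these letters are not in it.

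**Figure D3:**
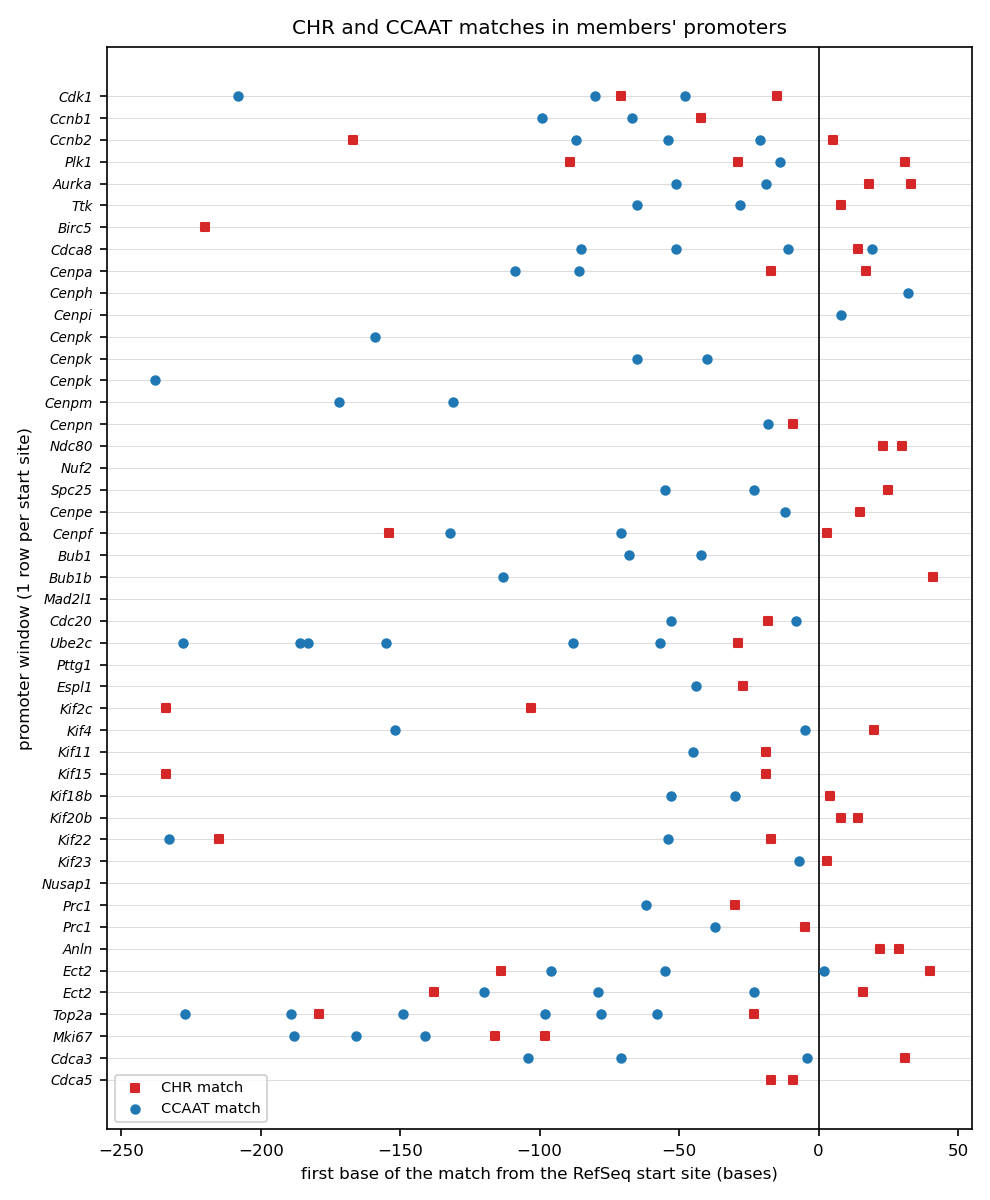
Position of CHR (red squares) and CCAAT (blue circles) matches in the 46 RefSeq promoter windows of 42 of the genes, by distance in bases from the start site (vertical line), 1 row per start site. CHR matches gather close to the start in most rows, and CCAAT matches lie mostly in the bases before it.

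In the chromosomal passenger complex, the kinase assembly that corrects faulty chromosome attachments, all 4 genes fell with TNF, LPS and hypoxia, but by very different amounts. Birc5 (chr11:117849251-117855743), which encodes survivin, was counted at 30.4, 20.4 and 21.5 CPM with IFNg and at 0.167, 0.986 and 0 CPM with TNF. That was the largest fall of the 49 genes in any of the comparisons, with a log2 fold change of -5.92 (SE 0.51, adjusted p = 2.22e-09). With LPS it stood at 4.40, 5.05 and 4.04 CPM, above every TNF library (log2 difference 3.50, SE 0.53, adjusted p = 2.62e-05), and with hypoxia at 5.17, 3.66 and 1.93 CPM (TNF minus hypoxia, log2 -3.18, SE 0.54, adjusted p = 5.35e-05).

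Incenp (chr19:9872296-9899551), the scaffold on which survivin, borealin and Aurora B assemble, was the most abundant gene of the complex and behaved otherwise. It stood at 223, 208 and 195 CPM in the control, 148, 144 and 123 CPM with IFNg, 79.2, 69.2 and 62.7 CPM with LPS, and 62.7, 59.0 and 55.1 CPM with TNF. In hypoxia it was counted at 31.5, 32.5 and 33.9 CPM, below every library of the other groups. Its log2 fold change against IFNg was -1.23 (SE 0.12, adjusted p = 2.52e-09) with TNF, a fall 2.35-fold in size, and -2.08 (SE 0.12, adjusted p = 1.24e-12) with hypoxia. It was lower with hypoxia than with TNF (TNF minus hypoxia, log2 0.85, SE 0.12, adjusted p = 2.26e-06) and than with LPS (LPS minus hypoxia, log2 1.11, SE 0.12, adjusted p = 6.41e-08). Aurkb, the Aurora B kinase, did not pass the test with IFNg alone (log2 -0.23, SE 0.28, adjusted p = 0.647) and fell by 4.0 on the log2 scale with TNF.

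Of the 12 centromere and outer kinetochore genes, 12 fell with TNF, 9 with LPS and 10 with hypoxia, and 3 with IFNg alone. Cenpe (chr3:135212537-135273611), a kinetochore motor and the most abundant of them, stood at 161, 155 and 114 CPM in the control and 85.6, 82.9 and 75.5 CPM with IFNg. It was counted at 15.9, 18.1 and 20.2 CPM with LPS, 16.4, 21.8 and 16.3 CPM with hypoxia and 7.45, 12.2 and 8.16 CPM with TNF. The TNF libraries were below all LPS and hypoxia libraries, and the latter groups overlapped. The log2 fold change against IFNg was -3.14 (SE 0.20, adjusted p = 6.6e-13) with TNF, -2.17 (SE 0.19, adjusted p = 1.49e-09) with LPS and -2.17 (SE 0.19, adjusted p = 1.95e-09) with hypoxia.

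Cenpa, the histone H3 variant that marks centromeres, fell with IFNg but did not pass the test between hypoxia and IFNg. It stood at 26.3, 45.7 and 31.2 CPM in the control and 11.4, 10.9 and 10.6 CPM with IFNg (log2 -1.65, SE 0.33, adjusted p = 0.000286). With hypoxia it was counted at 7.35, 8.85 and 5.41 CPM (log2 -0.61 against IFNg, adjusted p = 0.194), and with LPS at 4.58, 3.74 and 3.28 CPM. The LPS libraries lay below the hypoxia libraries, with an adjusted p of 0.0465, and this call was lost without any one of 5 of the 6 libraries (adjusted p from 0.0599 to 0.171) and with the RPKM totals (0.102).

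The 4 genes of the Ndc80 complex (Ndc80, Nuf2, Spc24 and Spc25), which holds the microtubule end, all fell with TNF and with hypoxia. Spc24 was a low gene, at 6.15, 5.83 and 4.03 CPM with IFNg, and was counted at 0.530, 0 and 0.232 CPM with hypoxia, the largest fall in that comparison (log2 -4.29, SE 0.85, adjusted p = 0.000366). With LPS it stood at 0.811, 3.13 and 0.767 CPM and did not pass the test against IFNg (adjusted p = 0.0846), the second library being far above the other two. Its difference between LPS and hypoxia (log2 2.54, SE 0.84, adjusted p = 0.0228) rests on these few counts, and was lost without the second LPS library (adjusted p = 0.216) and without the second or the third hypoxia library (0.09 and 0.0684). Among the inner centromere genes, Cenpk was the member that moved least with IFNg (4.59, 3.48 and 4.54 CPM in the control and 5.79, 3.12 and 3.83 CPM with IFNg, log2 0.01, SE 0.66). Cenpf, a large outer kinetochore protein, had the largest fold change with IL1b, at 36.9, 39.2 and 26.2 CPM against 64.5, 64.1 and 53.5 CPM with IFNg (log2 -0.83, SE 0.38, unadjusted p = 0.0463, adjusted p = 0.951). Spc24 had the smallest, at 4.87, 5.24 and 6.06 CPM with IL1b (log2 0.01, SE 0.68). It was also the gene with the smallest difference between TNF (0.111, 0.592 and 0 CPM) and hypoxia, where both groups had few counts.

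Among the 7 spindle checkpoint and APC/C genes, 6 fell and 1 rose with TNF and with LPS, and 5 fell with hypoxia. Bub1b (chr2:118598211-118641591), the BubR1 checkpoint protein, followed the common pattern, at 116, 102 and 102 CPM with IFNg, 31.1, 24.99 and 34.3 CPM with LPS, 21.3, 23.4 and 16.7 CPM with hypoxia and 8.45, 11.3 and 13.2 CPM with TNF. These 4 groups did not overlap. Its log2 fold change with TNF was -3.29 (SE 0.20, adjusted p = 1.90e-13). Cdc20, which activates the APC/C, had the largest fall with IFNg alone among the genes past the threshold, from 74.4, 87.7 and 99.1 CPM to 26.5, 25.7 and 20.2 CPM (log2 -1.85, SE 0.31, adjusted p = 5.29e-05).

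Pttg1 (chr11:43420250-43426251), which encodes securin, the inhibitor that holds separase inactive until anaphase, was the 1 gene that rose. It was counted at 42.2, 28.7 and 26.3 CPM in the control, 38.2, 21.4 and 35.7 CPM with IFNg and 38.4, 39.3 and 35.1 CPM with IL1b. With LPS it stood at 52.8, 46.0 and 59.1 CPM, with TNF at 53.6, 49.2 and 41.3 CPM and with hypoxia at 19.1, 24.1 and 27.3 CPM. All LPS libraries were above all libraries without LPS or TNF, the TNF libraries were above all IFNg libraries, and the hypoxia libraries overlapped those of IFNg. Against IFNg its log2 fold change was 0.73 with LPS (SE 0.21, adjusted p = 0.0125) and 0.60 with TNF (SE 0.21, adjusted p = 0.0214). The call with LPS was lost without the second IFNg library (log2 0.51, adjusted p = 0.111). The call with TNF was lost without that library (adjusted p = 0.161), without the first or the second TNF library (0.0797 and 0.0504), and with the RPKM totals (log2 0.28, adjusted p = 0.29). It was higher with LPS than with hypoxia (log2 1.16, SE 0.21, adjusted p = 0.000112) and higher with TNF than with hypoxia (log2 1.03, SE 0.21, adjusted p = 0.000281).

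Espl1 (chr15:102296266-102324357), which encodes separase, the protease that cuts cohesin and that securin holds in check, showed a different pattern again. It stood at 56.4, 46.7 and 45.4 CPM with IFNg and at 45.2, 45.4 and 40.4 CPM with hypoxia, the smallest change of the 49 genes in that comparison (log2 -0.18, SE 0.20, adjusted p = 0.568). With LPS it was counted at 27.7, 27.8 and 20.3 CPM and with TNF at 14.1, 14.4 and 7.30 CPM. Every LPS library lay below every hypoxia library and above every TNF library. The difference of TNF from hypoxia was -1.87 on the log2 scale (SE 0.21, adjusted p = 4.47e-08) and that of LPS from hypoxia -0.79 (SE 0.20, adjusted p = 0.00368). Securin and separase RNA thus stood in opposite orders in the TNF and hypoxia groups.

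Bub1, a checkpoint kinase, was likewise less lowered by hypoxia, at 46.5, 33.0 and 33.1 CPM with IFNg, 17.1, 29.1 and 15.1 CPM with hypoxia, 7.71, 11.2 and 7.81 CPM with LPS and 12.7, 6.84 and 8.48 CPM with TNF. The hypoxia libraries were above all LPS and TNF libraries. The log2 fold change of hypoxia against IFNg was -0.88 (SE 0.24, adjusted p = 0.00626). This call was lost without the first IFNg or the third hypoxia library (adjusted p = 0.0554 and 0.054). LPS minus hypoxia was -1.19 on the log2 scale (SE 0.25, adjusted p = 0.000433) and TNF minus hypoxia -1.12 (SE 0.25, adjusted p = 0.000551).

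**Figure D4:**
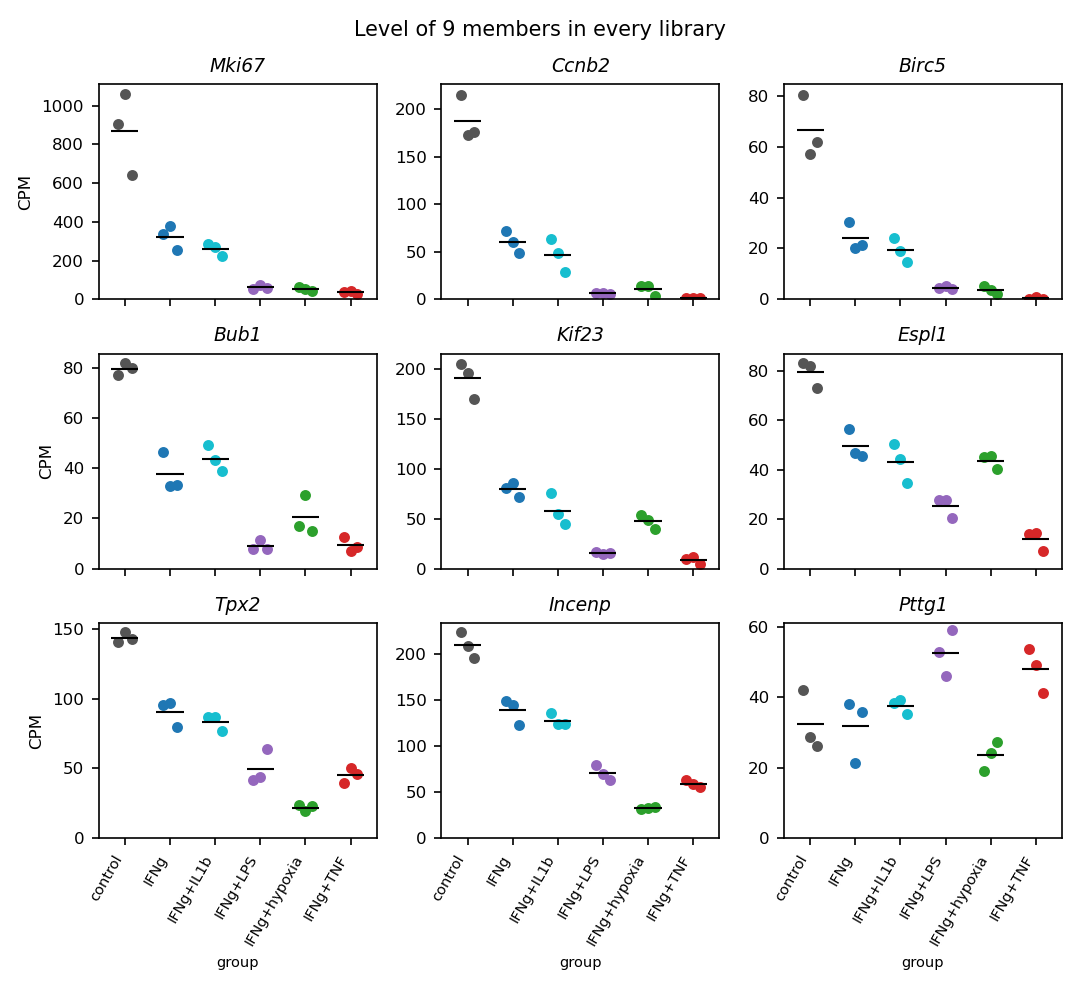
CPM of 9 genes in every library (points, 3 per group) with the group mean (bar), on a linear axis that starts at 0. Mki67, Ccnb2 and Birc5 drop with IFNg and again with LPS, hypoxia and TNF, while Kif23, Espl1 and Bub1 stay higher with hypoxia than with LPS or TNF, Tpx2 and Incenp are lowest with hypoxia, and Pttg1 is highest with LPS and TNF.

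All 9 mitotic kinesins, the motors that build the spindle and move chromosomes, fell with TNF, with LPS and with hypoxia, and 6 of 9 fell with IFNg alone. Kif20a, which acts in the central spindle and was the most abundant of them, stood at 226, 267 and 235 CPM in the control and 80.3, 90.7 and 70.8 CPM with IFNg (log2 -1.59, SE 0.23, adjusted p = 1.53e-05). It was counted at 11.4, 15.0 and 11.2 CPM with LPS, 14.6, 14.3 and 6.10 CPM with hypoxia and 5.45, 2.63 and 3.14 CPM with TNF, and the TNF libraries lay below all the others. Of its 2664 coding bases, 606 overlap those of Cdc23 on the opposite strand, and the labels do not say whether the counting used strand.

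Kif23 (chr9:61915905-61946774), the motor of centralspindlin, kept more of its RNA in hypoxia than any other kinesin. It stood at 205, 196 and 170.3 CPM in the control, 80.5, 85.5 and 72.3 CPM with IFNg and 53.7, 48.95 and 39.9 CPM with hypoxia. With LPS it was counted at 16.8, 14.9 and 15.8 CPM and with TNF at 9.28, 11.2 and 4.24 CPM, and none of these groups overlapped. Its fold change with hypoxia against IFNg was -0.74 (log2, SE 0.21, adjusted p = 0.0124), where the other 8 kinesins ranged from -2.32 to -3.62, and the call was lost without the third hypoxia library (adjusted p = 0.0744). LPS minus hypoxia was -1.59 (SE 0.22, adjusted p = 5.65e-06), the largest difference in that direction among the 49 genes, and TNF minus hypoxia was -2.51 (SE 0.24, adjusted p = 4.95e-09). Kif2c, which takes microtubules apart, had the lowest share of its control level in hypoxia of all 49 genes, at 3.15%.

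Of the 5 genes of spindle assembly and cytokinesis, 5 fell in each of the comparisons of IFNg with control and of TNF, LPS and hypoxia with IFNg. Tpx2 (chr2:152847964-152895321), which activates Aurora A and starts microtubule growth near chromosomes, fell least of these with TNF. It stood at 141, 148 and 143 CPM in the control and 95.6, 96.7 and 79.6 CPM with IFNg. With TNF it was counted at 39.5, 50.3 and 45.6 CPM, with LPS at 41.3, 43.9 and 63.8 CPM and with hypoxia at 23.3, 19.1 and 22.9 CPM. The TNF and LPS libraries overlapped and all lay above the hypoxia libraries. Its log2 fold change with TNF was -1.01 (SE 0.15, adjusted p = 4.58e-06) and with hypoxia -2.06 (SE 0.16, adjusted p = 2.08e-10), and TNF minus hypoxia was 1.05 (SE 0.16, adjusted p = 4.91e-06).

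Prc1, which bundles the microtubules of the spindle midzone, did not differ between LPS and TNF beyond the spread, at 8.92, 10.3 and 5.51 CPM against 7.56, 9.60 and 6.75 CPM (log2 0.05, SE 0.23, the smallest difference of the 49 genes in that comparison). In hypoxia it was lower, at 4.31, 5.11 and 4.71 CPM (LPS minus hypoxia, log2 0.82, SE 0.24, adjusted p = 0.0104), a call lost without the second LPS library (adjusted p = 0.0788). Anln, the anillin of the cleavage furrow, went the other way, being lower with LPS than with hypoxia (log2 -0.70, SE 0.20, adjusted p = 0.00749), a call lost without the first LPS or the first hypoxia library (adjusted p = 0.0724 and 0.0677).

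The chromosome structure and cohesion role held the most abundant RNAs. Mki67 (chr7:135689784-135716361), which encodes the Ki-67 protein that coats mitotic chromosomes, stood at 908, 1058 and 639.7 CPM in the control and 338, 378 and 253 CPM with IFNg. With LPS it was counted at 54.4, 73.5 and 58.8 CPM, with hypoxia at 65.3, 52.1 and 41.5 CPM and with TNF at 36.3, 44.8 and 27.1 CPM. With IL1b it stood at 284, 271 and 226 CPM, which overlapped IFNg. The control was above IFNg and both were above the LPS, hypoxia and TNF groups, of which hypoxia overlapped LPS and TNF. Its log2 fold change was -1.43 with IFNg (SE 0.21, adjusted p = 2.34e-05), and against IFNg it was -3.16 with TNF (SE 0.23, adjusted p = 4.82e-10), -2.38 with LPS (SE 0.22, adjusted p = 8.68e-08) and -2.61 with hypoxia (SE 0.22, adjusted p = 2.84e-08).

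Top2a (chr11:98992943-99024189), the topoisomerase that untangles sister chromatids, did not pass the test of IFNg against control. It stood at 530.0, 666 and 529.6 CPM in the control and 459, 456 and 369.7 CPM with IFNg, a log2 fold change of -0.43 (SE 0.21, adjusted p = 0.169). The 3 control libraries were all above the IFNg libraries. With TNF it fell to 23.2, 25.2 and 15.3 CPM (log2 -4.33, SE 0.25, adjusted p = 2.16e-11). Cdca5, the sororin gene of sister chromatid cohesion, Cdca2, a chromatin phosphatase subunit, and Cdca3 fell in all 3 lowering conditions, by -1.87 to -3.86 on the log2 scale. Cdca3 had the smallest difference between LPS and hypoxia of the 49 genes, at 11.1, 12.6 and 8.22 CPM against 10.2, 10.98 and 10.7 CPM (log2 0.01, SE 0.32).

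The difference of TNF from LPS ran through most of the list, as did that from hypoxia. Between LPS and hypoxia 15 of the 49 genes differed, a share near the 30.0% of all tested genes, and they are named here as a description. Compared with hypoxia, LPS left Bub1b, Cdca8, Prc1, Kif22, Kif15, Incenp, Pttg1, Tpx2, Cdca5 and Spc24 higher and Kif23, Bub1, Cenpa, Espl1 and Anln lower. Compared with hypoxia, TNF left Prc1, Incenp, Pttg1 and Tpx2 higher and 31 genes lower. These 4 are therefore the genes that were lower in hypoxia than in both other conditions by the test. Espl1, Kif23, Bub1, Cenpa and Anln were higher in hypoxia than in both others. The same hypoxia libraries serve in both comparisons. Of the 15 calls between LPS and hypoxia, those of Incenp, Pttg1, Tpx2, Kif23, Bub1 and Espl1 held under every alternative run, and the other 9 were lost under at least 1. Between TNF and hypoxia, the call of Prc1 was lost without the second TNF or the first hypoxia library (adjusted p = 0.0736 and 0.0539).

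Genes outside the 49 were read in lists grouped by function. The 28 core genes of DNA replication, such as the Mcm helicase and Pcna, had 3 higher (Pcna, Mcm3 and Mcm6) and 0 lower with IFNg alone, where 1566 of all 11563 tested genes were higher, and a median log2 fold change of 0.40. The 3 are no larger a share than among all tested genes. Pcna, the sliding clamp of DNA polymerases, stood at 9.99, 14.7 and 10.4 CPM in the control and 23.1, 23.8 and 19.1 CPM with IFNg (log2 0.92, SE 0.21, adjusted p = 0.00171). With TNF 27 of the 28 fell, with LPS 20 and with hypoxia 26, where 22.6%, 10.1% and 11.8% of all tested genes fell. With IL1b 0 changed. Rrm1, a subunit of the enzyme that makes deoxyribonucleotides, fell from 186, 206 and 201 CPM with IFNg to 26.0, 30.5 and 26.6 CPM with TNF (log2 -2.84, SE 0.15, adjusted p = 2.67e-14).

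Of the 11 G1 cyclins and kinases, 4 were higher and 0 lower with IFNg alone (3 and 1 with the RPKM totals), where 23.6% of all tested genes changed. Ccnd1, the cyclin D1 gene of the G1 phase, rose from 9.99, 14.4 and 11.02 CPM to 43.2, 78.9 and 59.3 CPM (log2 2.36, SE 0.23, adjusted p = 5.25e-09), and all IFNg libraries were above all control libraries. Ccne1, the cyclin E1 gene of entry into S phase, rose from 2.47, 7.03 and 3.94 CPM to 37.8, 29.9 and 30.3 CPM (log2 2.88, SE 0.28, adjusted p = 6.05e-09). Against IFNg, 6 of the 11 fell with TNF and 2 rose, 2 fell and 2 rose with LPS, and 6 fell with hypoxia. Of all tested genes, 22.6% fell and 22.1% rose with TNF, 10.1% and 10.2% with LPS, and 11.8% and 13.5% with hypoxia. The rises with TNF were thus near the share of all genes. Myc was low, at 1.05 to 6.30 CPM in single libraries, and passed neither the test of IFNg against control nor that of any addition against IFNg.

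**Figure D5:**
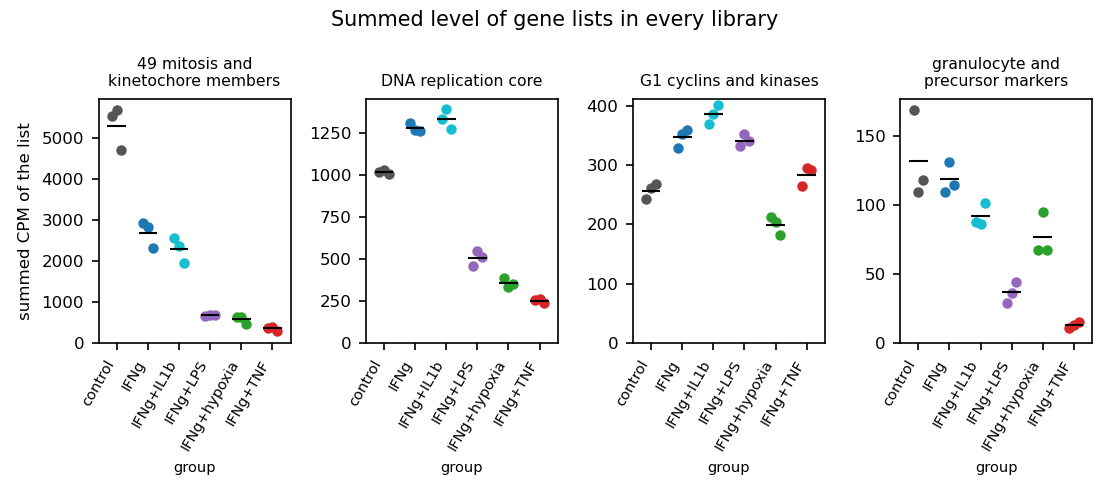
Summed CPM of 4 gene lists in every library (points) with the group mean (bar), on axes that start at 0. With IFNg the sum of the 49 genes falls while those of the DNA replication and G1 lists rise, and in the LPS, hypoxia and TNF groups the replication sum falls as well. The granulocyte and precursor marker sum is low with LPS and TNF and higher with hypoxia.

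The factors that time mitotic transcription were read in a list of 29 genes, of which 28 were tested. Foxm1, the forkhead factor of G2 and M genes, stood at 75.8, 90.1 and 72.6 CPM in the control, 59.7, 56.4 and 46.7 CPM with IFNg and 44.3, 49.9 and 34.8 CPM with IL1b. It fell to 9.91, 12.7 and 9.199 CPM with LPS, to 8.15, 4.43 and 3.01 CPM with hypoxia and to 3.78, 3.16 and 2.90 CPM with TNF. Its log2 fold change was -0.55 with IFNg (SE 0.23, adjusted p = 0.0801), and against IFNg -4.04 with TNF (SE 0.27, adjusted p = 1.65e-12), -3.37 with hypoxia (SE 0.26, adjusted p = 1.59e-10) and -2.35 with LPS (SE 0.24, adjusted p = 3.26e-08). In the whole list 14 fell and 3 rose with TNF (17 and 1 with the RPKM totals), 14 fell with LPS, and 11 fell and 1 rose with hypoxia (18 and 0 with the RPKM totals). Of all tested genes, 22.6% fell and 22.1% rose with TNF, 10.1% fell with LPS, and 11.8% fell and 13.5% rose with hypoxia.

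Other members of that list moved differently. Rbl1, which encodes the pocket protein p107 that the DREAM complex can contain, rose with IFNg from 58.8, 74.1 and 60.2 CPM to 175, 198 and 175 CPM (log2 1.51, SE 0.13, adjusted p = 4.84e-10). It fell against IFNg with TNF (log2 -0.62, SE 0.13, adjusted p = 0.000255) and with LPS (log2 -0.54, SE 0.13, adjusted p = 0.00235), and did not pass with hypoxia (log2 0.10, adjusted p = 0.656). E2f4, the E2F factor of DREAM, was between 46.9 and 80.6 CPM in all 18 libraries and passed none of the comparisons with IFNg. Mybl2, the B-Myb gene, was low, at 5.73, 4.53 and 5.06 CPM with IFNg. It fell with TNF (log2 -2.47, SE 0.72, adjusted p = 0.0062) and with hypoxia (log2 -2.52, SE 0.72, adjusted p = 0.0106) and not with LPS (adjusted p = 0.0882).

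Among 20 tested cell cycle inhibitors and p53 targets, 8 rose and 4 fell with TNF, 1 rose and 3 fell with LPS, and 6 rose and 3 fell with hypoxia (4 and 5 with the RPKM totals). Of all tested genes, 22.1% rose and 22.6% fell with TNF, 10.2% and 10.1% with LPS, and 13.5% and 11.8% with hypoxia. The counts with LPS and the falls with TNF and hypoxia were near or below these shares. Cdkn1a, the p21 inhibitor of cyclin-dependent kinases, was spread widely within groups, at 54.2, 70.4 and 48.9 CPM with IFNg and 378, 176 and 385 CPM with TNF. It rose with TNF (log2 2.44, SE 0.46, adjusted p = 0.000495) and did not pass with LPS (log2 0.89, SE 0.44, adjusted p = 0.193) or hypoxia (log2 1.08, SE 0.44, adjusted p = 0.0945). Mdm2, which marks p53 for destruction and is itself a p53 target, went from 121, 128 and 126 CPM with IFNg to 1163, 1127 and 1136 CPM with TNF (log2 3.19, SE 0.12, adjusted p = 1.34e-17) and to 482, 407 and 399.7 CPM with LPS (log2 1.78, SE 0.11, adjusted p = 5.25e-12). Cdkn1b, the p27 inhibitor, rose with hypoxia from 22.1, 21.2 and 17.02 CPM to 67.7, 78.8 and 73.7 CPM (log2 1.87, SE 0.18, adjusted p = 9.31e-09). Cdkn2c, another inhibitor of the list, went the other way. Its mean was 28.8 CPM with IFNg, 3.48 CPM with TNF, 6.78 CPM with LPS and 7.99 CPM with hypoxia.

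The neighbouring protein assemblies gave counts of their own. They stand beside shares of all tested genes of 22.6% lower and 22.1% higher with TNF. These shares were 10.1% and 10.2% with LPS, and 11.8% and 13.5% with hypoxia. Of 32 other kinetochore and centromere genes, 22 fell and 1 rose with TNF, 12 fell and 1 rose with LPS, and 17 fell with hypoxia. The gene that rose with TNF and with LPS was Zwint, a kinetochore protein that binds Knl1, at 30.8, 26.3 and 26.8 CPM with IFNg and 78.6, 70.3 and 68.9 CPM with TNF (log2 1.38, SE 0.20, adjusted p = 1.63e-06). Of 17 tested core APC/C genes, 5 fell with TNF, 3 with LPS and 3 with hypoxia (5 with the RPKM totals), with medians of -0.23, -0.19 and -0.22. These counts are not far from the shares of all tested genes that were lower, 22.6%, 10.1% and 11.8%. Of 29 tested other spindle and cytokinesis genes, 25 fell with TNF, 21 with LPS and 25 with hypoxia, among them Racgap1, the partner of Kif23 in centralspindlin. Of 17 condensin and cohesin genes, 10 fell and 1 rose with TNF, 12 fell with LPS, and 8 fell and 1 rose with hypoxia (11 and 0 with the RPKM totals).

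Across the 18 libraries, the standardised log2 CPM of each of the 49 genes was set against the mean of the other 48. The Pearson correlation was 0.96 in the median, over 0.9 for 36 genes, and lowest for Pttg1 at -0.28, followed by Cdca5 at 0.78. The 10 genes outside the list with the highest correlation to the mean of the 49 were Racgap1 (0.991), Foxm1 (0.981), Smc2 and Aspm (0.98 each), Cdkn2c (0.979), Ncapd2 (0.977), Ncapg and Knstrn (0.974 each), and Ckap2 and Kif14 (0.97 each). Racgap1 stood at 80.0, 76.1 and 68.8 CPM with IFNg and at 5.001, 6.84 and 5.57 CPM with TNF. All points share the 18 libraries and 6 groups, so these correlations describe the group pattern and carry no test.

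Markers of other cells that bone marrow cultures can hold moved with some of the groups. The 10 markers of granulocytes and their precursors summed to 109.5 to 169 CPM in the control, 109.5 to 131 CPM with IFNg, 11 to 15.0 CPM with TNF, 28.7 to 44.4 CPM with LPS, 67.1 to 95.0 CPM with hypoxia and 86.5 to 101 CPM with IL1b. Of these 10, 9 fell with TNF, 8 with LPS and 0 with hypoxia (2 with the RPKM totals), and Elane was at 0 in all TNF and LPS libraries. Among all tested genes 22.6%, 10.1% and 11.8% fell in these comparisons with IFNg. The 6 B cell markers, of which Ighm and Cd79b were tested, summed to 505 to 579 CPM with IFNg, 7.28 to 12.6 CPM with TNF, 63.3 to 109.6 CPM with LPS and 249.6 to 283 CPM with hypoxia. With IFNg this sum was mostly Ighm, at a mean of 534 CPM against 5.52 CPM for Cd79b. Both tested genes fell with TNF and with LPS, while with hypoxia 1 rose and 1 fell. The B cell markers Ms4a1 and Pax5 were at 0 in all 18 libraries, and so were 3 of the 6 T cell markers (Cd3e, Cd3d and Cd3g). The 6 T cell markers summed to 41.1 to 59.6 CPM with IFNg, 182 to 283 CPM with TNF, 120.1 to 210.0 CPM with LPS and 85.5 to 107 CPM with hypoxia. With IFNg this sum was mostly Il7r, at a mean of 51.3 CPM, against 0.321 CPM for Cd247 and 0.515 CPM for Lck. Of the 3 tested, Il7r rose in all of these comparisons with IFNg and Cd247 rose with TNF (1 of these 2 calls with TNF was lost with the RPKM totals), while Lck passed none. Whether these RNAs came from such cells, and the part of such cells in the fall of the 49 genes, was not tested.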

How the data were processed

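RNA from 18 samples of bone marrow macrophages (6 groups of 3) was sequenced as single-end 50-base reads from a stranded TruSeq mRNA kit, per the labels' protocols. Per the submitters' processing notes, the authors aligned reads with GSNAP to mm10, while no source used here names the counter, its annotation or whether it used strand. The deposited tables hold a raw count and an RPKM value for each of 22598 genes, and 86.7% of the gene widths are multiples of 3, so most are taken as coding lengths. Ensembl IDs were matched to symbols for 22534 genes.

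Counts were tested with edgeR 4.0.16 (quasi-likelihood test, robust, TMM scaling, filterByExpr) under R 4.3.3, in 1 model of all 18 libraries with a mean per group, with Benjamini-Hochberg adjustment over 11563 genes and 0.05 as the threshold. SE is the absolute log2 fold change divided by the square root of F. The procedure was tested on simulated data. RPKM was used for levels between genes and for the alternative library totals (22728833 to 39859629 per library). Alternatives were DESeq2 1.42.0, other scalings and filters, only the 6 libraries compared, a replicate block and leaving out each library.

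The members and lists were chosen with earlier results of these data known. Full values were given for the most abundant gene of each role, for the largest and smallest fold change of each comparison, and for genes whose call departed from most. Birc5, Cdk1, Tpx2, Incenp, Bub1 and Top2a were described further after their values were seen. Promoter windows are RefSeq's, and were counted on both strands.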

Additional observations from a re-analysis of the deposited data

How the results depend on the processing

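Of the 49 genes, the number past the threshold was 28 for IFNg against control, 48, 0, 45 and 44 for TNF, IL1b, LPS and hypoxia against IFNg, and 38, 15 and 35 for LPS against TNF, LPS against hypoxia and TNF against hypoxia. Leaving out 1 library at a time gave 22 to 28, 47 to 48, 0 to 0, 43 to 45, 41 to 44, 31 to 37, 12 to 15 and 29 to 34 in the same order. The balance between LPS and hypoxia reversed without the third hypoxia library, where 13 genes differed, 6 higher and 7 lower with LPS. Fitting only the 6 libraries compared gave 1 gene for IL1b, 24 for LPS against TNF and 6 for LPS against hypoxia, 3 in each direction, with fewer libraries behind the estimate of the spread. DESeq2 gave 28, 49, 0, 47, 45, 39, 17 and 35.

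Library totals from the deposited RPKM values moved the median of all tested genes by -0.15 on the log2 scale for IFNg against control and by -0.32, 0.004, -0.076 and -0.25 for TNF, IL1b, LPS and hypoxia against IFNg, and gave 35, 48, 0, 45 and 45 genes. With a replicate block the counts were 31, 48, 0, 45, 44, 39, 18 and 35. The numbers did not pair the libraries by the rule used, as 9 of 45 same-number pairs correlated above 0.1. The median correlation was 0.035 in the same-number pairs and -0.026 between different numbers, and 12 of 18 libraries correlated best with their own number. The mean standardised log2 CPM of the listed genes was lowest in the M3 library of every group, narrowly so with LPS (-0.476 against -0.469 and -0.453). The main model had no term for the number, and an effect of the number itself was not tested. No fold change of a called gene reversed its sign under any alternative. Calls lost under at least 1 alternative numbered 6 of 28 for IFNg, 1 with TNF (Pttg1), 4 with LPS and 4 with hypoxia against IFNg, and 16, 9 and 9 in the comparisons of LPS with TNF, LPS with hypoxia and TNF with hypoxia. Depth limits genes of few counts such as Ccnb1, Spc24 and Cenpk.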
